A study of Mus musculus with 6 samples.

Results

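The genes described are the ATP-binding cassette (ABC) transporters of the mouse, taken from the deposited table as every symbol that begins with Abca, Abcb, Abcc, Abcd, Abce, Abcf or Abcg and a digit, without Abca1, Abcg1 and pseudogenes. There were 48 such genes among 24421. ABC proteins bind and hydrolyse ATP in a pair of nucleotide-binding domains and, in most members, use that energy to push a substrate across a membrane. In some members both domains lie in a single chain, others must join as dimers to make a pump, and the ABCE and ABCF proteins have no membrane part and act on ribosomes. In the proximal tubule, pumps of the ABCB, ABCC and ABCG subfamilies sit in the brush border and clear drugs, urate and glutathione or glucuronide conjugates into the urine.

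The libraries were made from messenger RNA of primary mouse kidney cells labelled as proximal tubular epithelium, cultured with fetal bovine serum and exposed to 20 µM erastin2 for 24 h. Erastin2 blocks the cystine importer system xc- and so depletes glutathione, which is a co-substrate of several ABCC pumps. The groups were Atg5KO (3 libraries) and Atg5F/F (3 libraries, the floxed allele without the knockout label). Both groups had received the drug, so a difference between genotypes that exists without erastin2 and a genotype-dependent response to it cannot be told apart. All 6 carry the same batch label. The labels name no Cre line, mouse, age or separate culture, so the p-values describe the spread between these 6 libraries, which may be technical.

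The read totals that the deposited FPKM imply (fragments mapped to a gene, divided by its length and by the size of its library) ran from 15528454 to 30004933 per library. The targeted gene Atg5 was higher, not lower, in the libraries labelled Atg5KO, with 13.3, 11.5 and 12.7 FPKM against 8.76, 8.95 and 7.94 FPKM in those labelled Atg5F/F (log2 fold change 0.50, limma adjusted p = 5.5e-04). A level for the whole gene says nothing of a missing exon, so the genotype could not be checked here, and each direction below rests on the labels. Of 28 proximal tubule markers, 13 reached the level needed for testing. In KO-labelled libraries 10 of the 13 fell and 2 rose, where 17.9% of all tested genes fell and 21.3% rose. The summed level of the 28 markers was 174 to 194 FPKM in KO-labelled and 310 to 355 FPKM in F/F-labelled libraries. The defining transporter genes Slc34a1, Slc5a2, Slc22a6 and Slc22a8 were at or near 0 in both groups (at most 0.251 FPKM). Pecam1, Cdh5, Ptprc, Cd3e, Col1a1, Pdgfrb, Umod and Aqp2, which mark endothelium, leukocytes, fibroblasts, mural cells, loop of Henle and collecting duct, were likewise at or near 0 (at most 0.277 FPKM). Other markers of those cells were detected. Of 8 endothelial markers 2 were tested: Kdr fell, with 5.53 ± 0.91 FPKM in KO-labelled and 9.06 ± 0.61 FPKM in F/F-labelled libraries, and Flt1 averaged 2.12 ± 0.35 FPKM in KO-labelled and 1.71 ± 0.20 FPKM in F/F-labelled libraries and was not called. Of 9 leukocyte markers 2 were tested and neither was called: Csf1r averaged 7.07 ± 0.64 FPKM in KO-labelled and 7.05 ± 0.61 FPKM in F/F-labelled libraries, and Cd68 averaged 4.19 ± 0.30 FPKM in KO-labelled and 5.01 ± 0.49 FPKM in F/F-labelled libraries (SD, n = 3 each). Summed over each list, the endothelial markers reached 7.86 to 9.54 FPKM in KO-labelled and 10.8 to 12.4 FPKM in F/F-labelled libraries, and the leukocyte markers 10.3 to 12.6 FPKM in KO-labelled and 11.0 to 13.4 FPKM in F/F-labelled libraries. Of 5 podocyte markers, Podxl rose, Wt1 fell, Synpo was not called and the others were too low to test. Among 12 fibroblast and mural markers, Acta2 and Postn rose, Cspg4 fell and the other 9 were too low to test. Postn reached the level for testing only in KO-labelled libraries and Cspg4 only in F/F-labelled libraries, so the filter favoured these directions. The list's summed level was 180 to 228 FPKM in KO-labelled and 40.2 to 45.9 FPKM in F/F-labelled libraries.

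Of the 48 ABC genes, 25 had at least 1 FPKM in at least 3 libraries and were tested with all other genes above that level. In KO-labelled libraries 11 fell, 2 rose and 12 were not called (limma on log2(FPKM + 1), Benjamini-Hochberg adjusted p under 0.05 over 11559 genes). The called share of the tested ABC genes was 52.0%, where 39.2% of all tested genes were called. By direction, 44.0% of the ABC genes fell against 17.9% of all tested genes, and 8.0% rose against 21.3%. KO-labelled and F/F-labelled values lay fully apart for 16 of the 25 tested ABC genes (64.0%), 13 lower and 3 higher, beside 51.9% of all tested genes (23.2% lower and 28.7% higher). The median log2 fold change was -0.09 over the tested ABC genes and 0.02 over all tested genes. Called genes were found among the plasma membrane pumps and the ABCA, mitochondrial and ABCD transporters, and none of the 4 ribosomal ATPases was called.

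**Figure D1:**
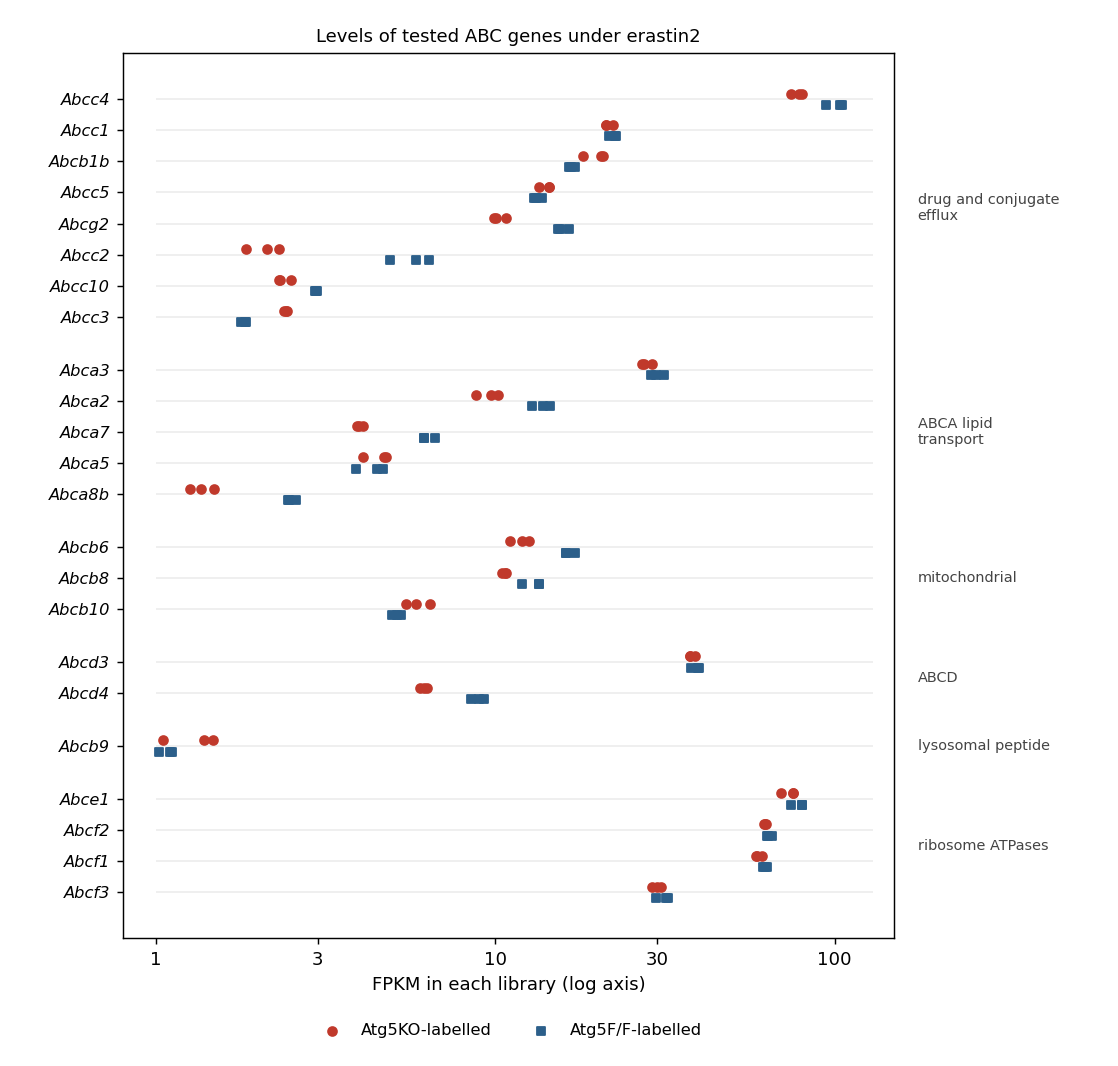
FPKM (log axis) of 23 tested ABC genes in each of the 6 libraries, grouped by role, with Atg5KO-labelled libraries as circles above and Atg5F/F-labelled libraries as squares below. The groups lie apart for Abcc2, Abcg2, Abca7, Abca8b, Abcb6 and Abcd4, whereas they overlap or nearly touch for the ribosomal ATPases at 28.9 to 80.3 FPKM.

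Among the efflux pumps of the plasma membrane, 8 of 12 genes were tested, of which 4 fell and 2 rose. The largest difference of the whole family was that of Abcc2 (ENSMUSG00000025194, chr19:43782192-43840740 in GRCm38, plus strand), which encodes MRP2, the apical pump for glutathione and glucuronide conjugates. It had 1.84, 2.13 and 2.30 FPKM in KO-labelled libraries, against 4.90, 6.37 and 5.83 FPKM in F/F-labelled libraries. Every KO-labelled value was thus less than every F/F-labelled value, and the KO-labelled mean of 2.09 ± 0.23 FPKM was 36.7% of the F/F-labelled mean of 5.70 ± 0.74 FPKM (SD, n = 3 each; log2 fold change -1.11 with SE 0.096, limma adjusted p = 5.6e-05). These levels rest on 194 to 216 and on 533 to 793 reads. On the log2(FPKM + 1) scale a change of a low gene is understated, and with voom on the recovered reads the log2 fold change was -1.42.

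Abcg2 (ENSMUSG00000029802, chr6:58584523-58695676, plus strand) encodes BCRP, a dimeric pump that exports urate, porphyrins and many drugs. It had 10.7, 9.89 and 10.1 FPKM in KO-labelled libraries and 16.5, 15.3 and 15.5 FPKM in F/F-labelled libraries. The groups were far apart for the spread within them, at 64.8% of the F/F-labelled mean (log2 fold change -0.58 with SE 0.050, limma adjusted p = 5.6e-05). Abcc4 (ENSMUSG00000032849, chr14:118482692-118706219, minus strand) encodes MRP4, an apical exporter of urate, cyclic nucleotides and prostaglandins, and was the most abundant ABC gene of these cells per length. Its values were 80.2, 74.2 and 78.6 FPKM in KO-labelled libraries against 105, 94.5 and 104 FPKM in F/F-labelled libraries, without overlap. The mean of 77.7 ± 3.1 FPKM was 76.9% of the F/F-labelled 101 ± 5.7 FPKM (log2 fold change -0.37 with SE 0.051, limma adjusted p = 6.1e-04).

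Abcc10 (MRP7, a drug efflux pump; chr17:46303221-46328352, minus strand) had 2.30, 2.49 and 2.31 FPKM in KO-labelled libraries and 2.98, 2.94 and 2.96 FPKM in F/F-labelled libraries. The decrease was small beside that of Abcc2 (log2 fold change -0.23 with SE 0.066, limma adjusted p = 0.022). The call was lost without Atg5KO replicate 1, Atg5KO replicate 3, Atg5F/F replicate 1 or Atg5F/F replicate 3, at adjusted p of 0.059 to 0.071 and log2 fold changes of -0.23 to -0.22 (limma).

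The increases were those of Abcc3 and Abcb1b. Abcc3 (ENSMUSG00000020865, chr11:94343295-94392997, minus strand) encodes MRP3, a glucuronide pump found on the basolateral side of hepatocytes. It had 2.42, 2.43 and 2.38 FPKM in KO-labelled libraries against 1.85, 1.78 and 1.83 FPKM in F/F-labelled libraries. The values were close together within each group and did not overlap (log2 fold change 0.28 with SE 0.069, limma adjusted p = 0.013). Abcb1b (ENSMUSG00000028970, chr5:8798147-8866315, plus strand) is, with Abcb1a, the mouse counterpart of the human gene for P-glycoprotein, the classical multidrug pump. It had 20.7, 18.2 and 20.5 FPKM in KO-labelled libraries and 16.4, 16.7 and 17.2 FPKM in F/F-labelled libraries (log2 fold change 0.22 with SE 0.055, limma adjusted p = 0.012), with the lowest KO-labelled value still above the highest F/F-labelled value.

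Abcb1a lies in the same gene cluster (chr5:8660077-8748575, plus strand) and stayed below the level for testing, at 0.520, 0.641 and 0.577 FPKM in KO-labelled and 0.556, 0.621 and 0.612 FPKM in F/F-labelled libraries. Its values overlapped between the groups. Abcb1a and Abcb1b are close copies, and how reads that match both were counted is not given in the sources used here, so the split between them is uncertain. The cluster also holds Abcb4 (a phosphatidylcholine exporter of bile canaliculi; chr5:8893717-8959231, plus strand), which had 6 to 15 reads per KO-labelled and 9 to 15 reads per F/F-labelled library.

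The remaining tested pumps of the membrane were not called. Abcc1, which encodes MRP1, an exporter of leukotriene C4 and glutathione conjugates, averaged 21.6 ± 0.57 FPKM in KO-labelled and 22.3 ± 0.61 FPKM in F/F-labelled libraries. Abcc5, a pump for cyclic nucleotides, averaged 14.1 ± 0.57 FPKM in KO-labelled and 13.3 ± 0.39 FPKM in F/F-labelled libraries (SD, n = 3 each). Both sets of values overlapped between the groups. Abcc2 and Abcc1 both encode pumps for glutathione conjugates, among other ABCC genes. Abcc2 was thus called and Abcc1 was not (log2 fold change -0.05 with SE 0.041, limma adjusted p = 0.40), though the difference between these changes was not tested. The summed level of the 12 efflux genes was 153, 147 and 153 FPKM in KO-labelled libraries and 183, 174 and 184 FPKM in F/F-labelled libraries, of which Abcc4 gave the greatest part. The proximal tubule markers and Kdr fell in the same libraries, as given above; their part in these decreases, and in those of the other ABC genes below, was not tested. In RNA from whole cultures, fewer cells of a type and less RNA per cell cannot be told apart.

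Promoter bases are shown for Abcc2, Abcg2 and Abca8b, the 3 genes with the largest called decreases on the log2(FPKM + 1) scale. They are also shown for Abcb1b, the called increase with an entry. As a percentage of the F/F-labelled mean, Abca7 (63.1%) fell further than Abcg2 (64.8%). RefSeq promoter windows (GRCm38.p6, 250 bases before to 50 after a start) were matched for 37 of the 48 genes and for 9 of the 13 called ones, with no entry used for Abcc3. The 120 bases before each start are printed 5′ to 3′ on the gene's own strand, with matches to 4 short motifs in capitals.
Abcc2, chr19:43782188-43782307: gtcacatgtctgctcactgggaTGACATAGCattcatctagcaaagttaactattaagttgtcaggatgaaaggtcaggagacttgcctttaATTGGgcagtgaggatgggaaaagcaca
Abcg2, upstream start, chr6:58584413-58584532: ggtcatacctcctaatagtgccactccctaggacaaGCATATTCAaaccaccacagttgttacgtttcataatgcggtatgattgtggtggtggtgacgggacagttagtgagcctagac
Abcg2, middle start, chr6:58596552-58596671: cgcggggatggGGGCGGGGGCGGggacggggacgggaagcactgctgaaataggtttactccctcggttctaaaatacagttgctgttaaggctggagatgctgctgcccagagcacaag
Abcg2, downstream start, chr6:58640426-58640545: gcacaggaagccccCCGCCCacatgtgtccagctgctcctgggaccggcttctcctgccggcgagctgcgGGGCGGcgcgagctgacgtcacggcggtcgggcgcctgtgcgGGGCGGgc
Abca8b, minus strand, chr11:109995846-109995965: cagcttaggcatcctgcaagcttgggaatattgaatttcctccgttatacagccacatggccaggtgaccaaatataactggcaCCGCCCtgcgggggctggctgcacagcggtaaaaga
Abcb1b, chr5:8798027-8798146: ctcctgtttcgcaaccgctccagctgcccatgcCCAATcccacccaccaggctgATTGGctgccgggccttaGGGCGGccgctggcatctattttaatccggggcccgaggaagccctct

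The motifs were searched on both strands as TGANNNNGC (the core of the antioxidant response element, which NRF2 binds), CACGTG (the E-box at the heart of the CLEAR element, which TFEB binds), GGGCGG (the GC box) and CCAAT. Abcc2 holds an antioxidant core at position -98 from its start and a reversed CCAAT. The 3 annotated starts of Abcg2 differ in the printed bases: the upstream start has a reversed antioxidant core and no GC box, and the others have GC boxes only. GENCODE places the 5′ ends of Abcc2 and Abcg2 within the first 2 printed stretches rather than after them, and the deposited values are per gene and do not say which start was used. No motif overlaps another in the printed bases. Abcb1b, which rose, has a GC box between a CCAAT pair and the start, and Abca8b, which fell, has a reversed GC box. Both also have an antioxidant core just after the start, outside the printed bases, and Abca8b has CACGTG there too.
Over the full windows the antioxidant core was found in 41.3% of 32851 promoters and in 36.4% of the 44 ABC promoters. The corresponding shares were 7.15% and 11.4% for CACGTG, 35.7% and 45.5% for GGGCGG, and 37.4% and 36.4% for CCAAT. Counted by gene, the antioxidant core was in a window of 6 of the 8 lower ABC genes with an entry, of 1 of 1 higher gene and of 3 of 10 genes not called, beside 48.0% of all 8748 tested genes with an entry. The other motifs were also found in a greater share of the lower ABC genes than of those not called. GGGCGG was in 7 of 8 lower and 6 of 10 uncalled ABC genes (71.4% of all tested genes), CCAAT in 4 of 8 and 2 of 10 (42.6%), and CACGTG in 2 of 8 and 1 of 10 (12.3%). Over all tested genes the antioxidant core was in 48.5% of those that fell and 48.0% of those not called. These shares were 69.8% and 70.7% for GGGCGG, 41.7% and 42.8% for CCAAT, and 14.0% and 12.1% for CACGTG. The ABC shares rest on 8 and 10 genes, and the differences between them were not tested. A match is a match of letters and not a bound site, and genes with several starts had more windows in which to match.

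The ABCA subfamily, whose members move lipids, had 5 of 15 genes above the level for testing, of which 3 fell and 0 rose. Abca2 (chr2:25428703-25448540, plus strand) encodes an endolysosomal lipid transporter best known from oligodendrocytes. It had 8.80, 10.2 and 9.73 FPKM in KO-labelled libraries and 12.8, 14.5 and 13.8 FPKM in F/F-labelled libraries, without overlap, at 69.8% of the F/F-labelled mean (log2 fold change -0.48 with SE 0.065, limma adjusted p = 6.5e-04). Abca7 (chr10:79996494-80015572, plus strand), linked to phospholipid export and phagocytosis, had 3.92, 3.97 and 4.09 FPKM in KO-labelled libraries against 6.17, 6.64 and 6.17 FPKM in F/F-labelled libraries. Its KO-labelled mean was 63.1% of the F/F-labelled one (log2 fold change -0.55 with SE 0.057, limma adjusted p = 1.5e-04).

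Abca8b (chr11:109932190-109995845, minus strand), a relative of the human lipid transporter ABCA8, had 1.26, 1.36 and 1.49 FPKM in KO-labelled and 2.44, 2.47 and 2.59 FPKM in F/F-labelled libraries. The KO-labelled mean was 54.8% of the F/F-labelled one (log2 fold change -0.56 with SE 0.076, limma adjusted p = 6.1e-04), and voom on the recovered reads gave -0.87. Abca8b belongs to a row of related genes on chromosome 11, in which its neighbours differed in level by orders of magnitude. Abca8a (chr11:110025634-110095978) was listed at 0, Abca9 (chr11:110100749-110168196) and Abca6 (chr11:110176820-110251776) had 0 to 6 reads per library, and Abca5 (chr11:110269369-110337716) was well above them. Abca5, which encodes an endolysosomal protein tied to cholesterol handling, had 4.71, 4.07 and 4.77 FPKM in KO-labelled and 4.66, 3.89 and 4.47 FPKM in F/F-labelled libraries, and the groups overlapped. Within this row the decrease was called for Abca8b and not for Abca5 (log2 fold change 0.05 with SE 0.081, limma adjusted p = 0.67); the difference between the pair was not tested. Abca8a and Abca8b are close copies, so the split of reads between them is uncertain.

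Abca3, the phospholipid transporter that loads lamellar bodies in the lung, was the most abundant of the subfamily, with 27.1, 27.4 and 28.9 FPKM in KO-labelled and 28.7, 31.5 and 29.8 FPKM in F/F-labelled libraries. The groups overlapped narrowly and the gene was not called (log2 fold change -0.11, limma adjusted p = 0.098). It was called when each library's trend on gene length was removed (log2 fold change -0.18, limma adjusted p = 0.013). Abca12, the ceramide exporter of keratinocytes, was too low to test. It had 37, 29 and 27 reads in KO-labelled libraries against 20, 13 and 21 reads in F/F-labelled libraries, and the groups did not overlap in FPKM. These reads correspond to 0.206 ± 0.0195 FPKM in KO-labelled and 0.0979 ± 0.0166 FPKM in F/F-labelled libraries (SD, n = 3 each). The authors' deposited table gives Abca12 a log2 fold change of 1.07 and an FDR of 0.0020.

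**Figure D2:**
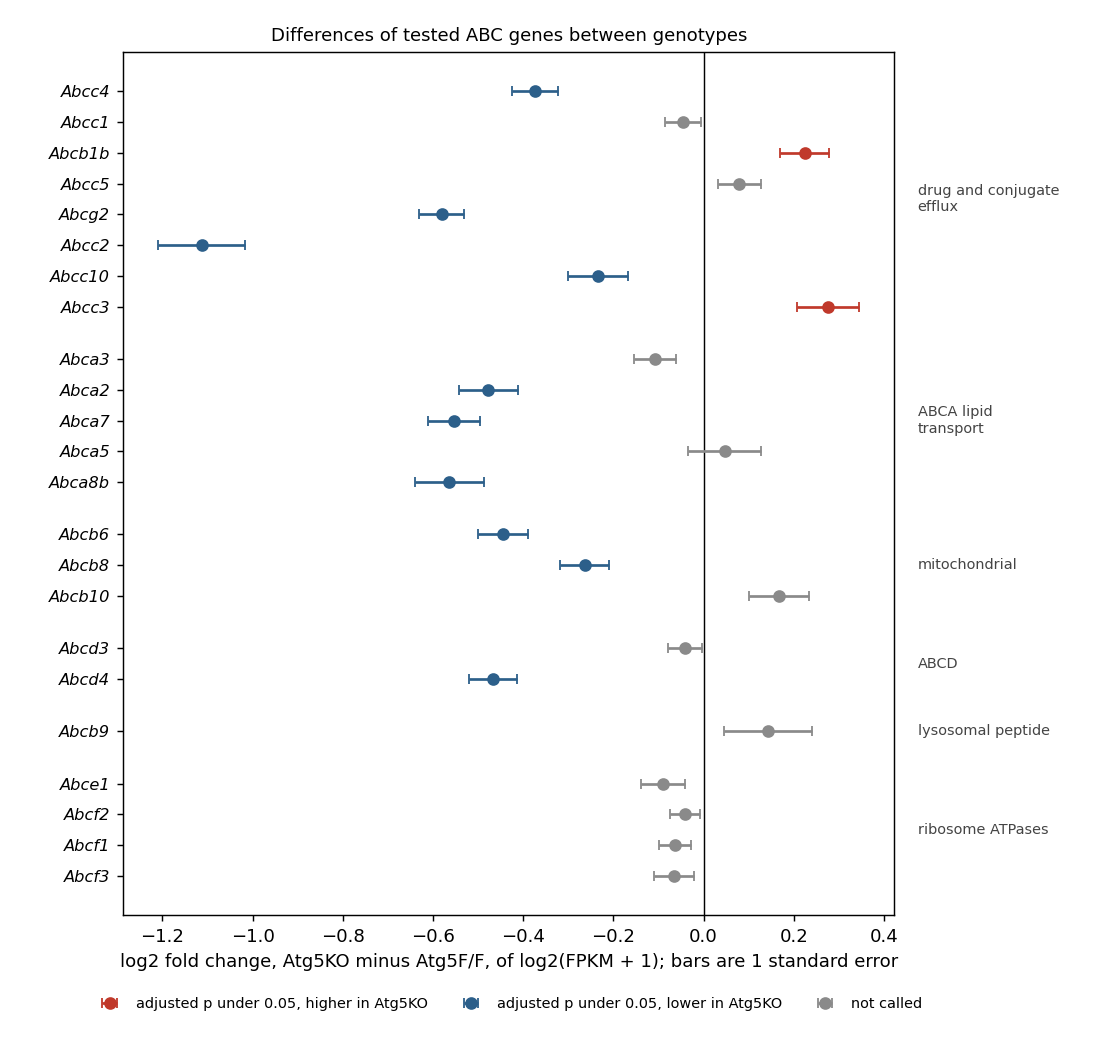
Log2 fold change (Atg5KO minus Atg5F/F, of log2(FPKM + 1)) of 23 tested ABC genes by role, with bars of 1 standard error. The 10 plotted genes that fell are blue, the 2 that rose (Abcc3 and Abcb1b) red and the 11 not called grey; Abcc2 stands farthest from 0 at -1.11.

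Transporters of the mitochondrion work as dimers and serve haem and iron metabolism, and Abcb6 and Abcb8 fell. Abcb6 (chr1:75171717-75180392, minus strand), a porphyrin-linked transporter of the outer membrane that is also found in endolysosomes, had 11.0, 12.6 and 12.0 FPKM in KO-labelled libraries against 16.1, 16.2 and 17.2 FPKM in F/F-labelled libraries. The groups did not overlap, and the KO-labelled mean was 71.9% of the F/F-labelled one (log2 fold change -0.44 with SE 0.055, limma adjusted p = 3.8e-04). The annotation places a second transcript unit, Gm29253, on the same strand over 55.2% of its exonic bases, so its value depends on how shared reads were assigned. Abcb8 (chr5:24393663-24410054, plus strand), an inner membrane protein tied to iron export in mouse heart, had 10.7, 10.7 and 10.5 FPKM in KO-labelled and 12.0, 13.5 and 13.5 FPKM in F/F-labelled libraries (log2 fold change -0.26 with SE 0.055, limma adjusted p = 0.0057).

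Abcb10, an inner membrane protein linked to haem synthesis, stood on the other side of 0 from Abcb6 and Abcb8. It had 6.42, 5.45 and 5.83 FPKM in KO-labelled libraries against 4.97, 5.13 and 5.29 FPKM in F/F-labelled libraries. The groups did not overlap, but the gene was not called (log2 fold change 0.17 with SE 0.066, limma adjusted p = 0.074). It was called by voom on the recovered reads (log2 fold change 0.21, limma adjusted p = 0.031) and without Atg5KO replicate 2 (log2 fold change 0.22, limma adjusted p = 0.041). An antisense transcript, Gm45890, covers 10.3% of the exonic bases of Abcb10, and whether strand was used in counting is unknown. Of 10 genes that assemble iron-sulphur clusters in the cytosol, only Nubp2 was called (25.5 ± 0.73 FPKM in KO-labelled and 29.4 ± 1.3 FPKM in F/F-labelled libraries; log2 fold change -0.20, limma adjusted p = 0.0085).

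The ABCD transporters also act as dimers, and Abcd4 fell. Abcd4 (chr12:84601464-84617413, minus strand) is the lysosomal member, which works with LMBD1 to release cobalamin (vitamin B12) into the cytosol. It had 6.18, 6.01 and 6.30 FPKM in KO-labelled libraries and 8.48, 8.97 and 9.27 FPKM in F/F-labelled libraries. The groups were well apart, at 69.2% of the F/F-labelled mean (log2 fold change -0.47 with SE 0.053, limma adjusted p = 2.4e-04). Of 9 genes that work in cobalamin uptake and use, only Tcn2, the blood carrier of cobalamin, was called (61.9 ± 1.3 FPKM in KO-labelled and 75.8 ± 4.8 FPKM in F/F-labelled libraries; log2 fold change -0.29, limma adjusted p = 0.0020). Lmbrd1, which encodes LMBD1, averaged 15.8 ± 0.15 FPKM in KO-labelled and 16.8 ± 0.89 FPKM in F/F-labelled libraries and was not called.

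Among peroxisomal members, Abcd3, which imports branched-chain and dicarboxylic acyl-CoAs, had 37.5, 37.6 and 38.7 FPKM in KO-labelled and 39.5, 40.0 and 37.7 FPKM in F/F-labelled libraries, with overlap (log2 fold change -0.04, limma adjusted p = 0.42). Abcd2 was listed at 0. Of 7 genes that deliver ABCD proteins or handle their substrates, 2 fell and 0 rose, where 17.9% of all tested genes fell and 21.3% rose. Among the 2 was Slc27a2, an acyl-CoA synthetase for very long chains (2.16 ± 0.59 FPKM in KO-labelled and 8.96 ± 2.1 FPKM in F/F-labelled libraries; log2 fold change -1.65, limma adjusted p = 1.3e-04). Pex19 and Pex3, which insert peroxisomal membrane proteins, were not called.

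The ATPases without a membrane domain were among the most abundant members and none was called. Abce1, which splits ribosomes after termination and carries iron-sulphur clusters, had 75.5, 69.3 and 75.5 FPKM in KO-labelled and 80.3, 74.3 and 79.9 FPKM in F/F-labelled libraries, with overlap (log2 fold change -0.09 with SE 0.049, limma adjusted p = 0.18). With the length trend removed it was called at -0.13 (limma adjusted p = 0.042), and quantile normalization gave -0.03. Abcf1, which binds the initiation factor eIF2, averaged 59.6 ± 1.3 FPKM in KO-labelled and 62.3 ± 0.87 FPKM in F/F-labelled libraries. Abcf2 averaged 62.3 ± 0.46 FPKM in KO-labelled and 64.1 ± 1.1 FPKM in F/F-labelled libraries, and Abcf3 averaged 29.8 ± 0.92 FPKM in KO-labelled and 31.3 ± 1.4 FPKM in F/F-labelled libraries (SD, n = 3 each). Their log2 fold changes lay between -0.07 and -0.04. For Abcf1 and Abcf2 the groups did not overlap, by margins that were small beside their levels. Of 6 partners in ribosome recycling and collision sensing, Pelo (21.5 ± 1.7 FPKM in KO-labelled and 26.8 ± 1.9 FPKM in F/F-labelled libraries) and Gspt1 (25.6 ± 1.3 FPKM in KO-labelled and 28.5 ± 0.68 FPKM in F/F-labelled libraries) fell. The call of Gspt1 was lost without Atg5KO replicate 2, Atg5KO replicate 3 or any single F/F-labelled library.

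Abcb9, the lysosomal peptide transporter TAPL, was the least abundant tested member, with 1.38, 1.47 and 1.05 FPKM in KO-labelled and 1.02, 1.10 and 1.11 FPKM in F/F-labelled libraries. Its values overlapped (log2 fold change 0.14 with SE 0.098, limma adjusted p = 0.28). Its relatives in antigen presentation carry other symbols. Tap1 rose to 14.9 ± 0.58 FPKM in KO-labelled libraries, against 10.6 ± 0.37 FPKM in F/F-labelled libraries (log2 fold change 0.45, limma adjusted p = 1.8e-04), while its partner Tap2 averaged 7.11 ± 0.90 FPKM in KO-labelled and 6.91 ± 0.062 FPKM in F/F-labelled libraries and was not called. Cftr, the chloride channel of the ABCC subfamily, fell to 4.92 ± 0.17 FPKM in KO-labelled libraries against 7.23 ± 0.20 FPKM in F/F-labelled libraries (log2 fold change -0.48, limma adjusted p = 2.4e-04). The sterol exporters Abca1 and Abcg1, which are not counted among the 48, fell as well (log2 fold changes -0.81 and -0.54).

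**Figure D3:**
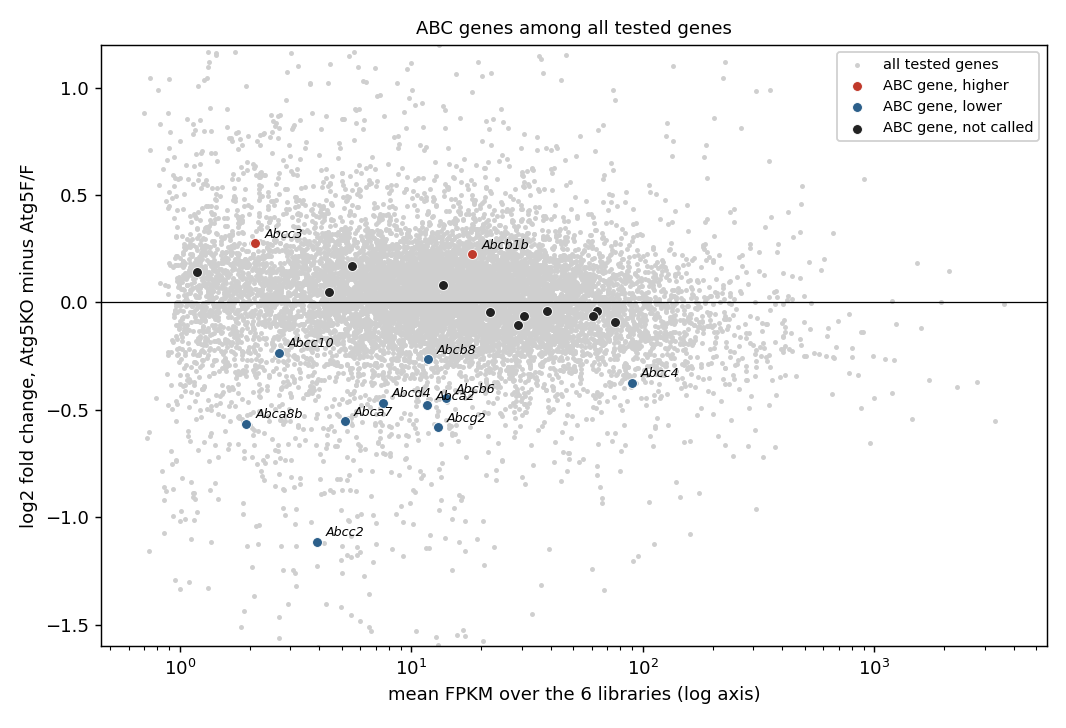
Log2 fold change (Atg5KO minus Atg5F/F) against mean FPKM (log axis) for all 11559 tested genes in grey, with 23 ABC genes coloured by call and the called ones named. The axis shows -1.6 to 1.2 and leaves out 56 genes beyond it; the ABC genes that fell lie from 1.94 FPKM (Abca8b) to 89.3 FPKM (Abcc4), with no drift along the level axis.

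Within the family the calls were spread over levels and lengths. Of the 15 tested members with a mean of at least 10 FPKM, 6 fell and 1 rose, and of the 10 below it, 5 fell and 1 rose. Across the 25 tested genes, which are not independent replicates and share the 6 libraries, the Spearman correlation of the log2 fold change was 0.018 with mean FPKM and -0.0023 with gene length. The tested ABC genes were longer than other genes, with a median implied length of 4344 bases against 2854 bases over all tested genes. Removing each library's trend on length raised the number of ABC genes that fell to 13 (adding Abca3 and Abce1), and kept the 13 calls of the main fit.

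Of 12 genes for transcription factors that sense drugs or stress and control transporter genes, and for their partners, 10 were tested. Of these, 4 fell and 0 rose, where 17.9% of all tested genes fell and 21.3% rose. On the log2(FPKM + 1) scale, which understates a change of a low gene, the bile acid receptor gene Nr1h4 had the largest change of the 10. It was at 5.07 ± 0.23 FPKM in KO-labelled and 8.93 ± 1.0 FPKM in F/F-labelled libraries (log2 fold change -0.71, limma adjusted p = 2.2e-04). Nr1h3, which encodes the oxysterol receptor LXR alpha, was at 2.39 ± 0.15 FPKM in KO-labelled and 4.06 ± 0.42 FPKM in F/F-labelled libraries. Ppara and Rxra fell too. Ppara reached the level for testing only in F/F-labelled libraries, so the filter favoured its decrease. The call of Rxra was lost without Atg5KO replicate 2, Atg5KO replicate 3, Atg5F/F replicate 2 or Atg5F/F replicate 3. Nfe2l2, the gene for NRF2, averaged 104 ± 4.4 FPKM in KO-labelled and 106 ± 4.8 FPKM in F/F-labelled libraries, and neither it nor Keap1 was called. The xenobiotic receptor genes Nr1i2 and Nr1i3 were below the level for testing. Nr1i2 had 0.080, 0.117 and 0.182 FPKM in KO-labelled and 0.501, 0.815 and 0.638 FPKM in F/F-labelled libraries, without overlap, whereas the values of Nr1i3 overlapped.

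Of 22 carriers and scaffold genes that stand beside the ABC pumps in drug handling by the proximal tubule, 8 were tested. Of these, 5 fell and 0 rose, where 17.9% of all tested genes fell and 21.3% rose. Pdzk1, the scaffold that binds brush border carriers, fell to 6.88 ± 0.51 FPKM in KO-labelled libraries against 12.0 ± 0.94 FPKM in F/F-labelled libraries, and Slc9a3r1, a second such scaffold (NHERF1), fell to 37.7 ± 0.75 FPKM in KO-labelled libraries against 51.3 ± 1.3 FPKM in F/F-labelled libraries. The prostaglandin carrier gene Slco2a1 was at 147 ± 3.6 FPKM in KO-labelled and 208 ± 8.1 FPKM in F/F-labelled libraries. Slc22a4 and Slc22a18 were the others, each with a log2 fold change of -0.26. The call of Slc22a4 was lost without Atg5KO replicate 2, Atg5F/F replicate 1 or Atg5F/F replicate 2, and that of Slc22a18 without Atg5KO replicate 1, Atg5KO replicate 3, Atg5F/F replicate 2 or Atg5F/F replicate 3. The organic anion and cation uptake genes Slc22a2, Slc22a6, Slc22a7 and Slc22a8 and the exporter genes Slc47a1 and Slc47a2 were below the level for testing. Of these, Slc47a1 had 0.173, 0.157 and 0.196 FPKM in KO-labelled and 0.569, 0.782 and 0.731 FPKM in F/F-labelled libraries, without overlap, and the others were at or near 0.

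The other 23 ABC genes did not reach the level for testing. None of their values exceeded 0.641 FPKM, and 16 had at least 1 read, from 1 read over all libraries (Abcc9, a sulphonylurea receptor) to 354 reads (Abcb1a). The sterol exporters of gut and liver, Abcg5 (chr17:84658234-84683011, minus strand) and Abcg8 (chr17:84676302-84700333, plus strand), had 0 to 1 and 0 to 4 reads per library. The bile salt pump gene Abcb11 had 0 to 4 reads per library. Abcb5 had 0 reads in every KO-labelled library and 1, 4 and 1 reads in F/F-labelled libraries, a difference not detectable at this depth. Listed at 0 throughout were Abca8a, Abca15, Abca16, Abcc8, Abcc12, Abcd2 and Abcg3. A count of 0 allows up to 3 reads, or 0.0124 to 0.0544 FPKM per library at the exonic lengths of GENCODE. Abca4, Abca13, Abca14, Abca17, Abcc6 and Abcg4 had 0 to 19 reads per library.

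The authors' deposited table, which tested reads with edgeR per the submitters' processing notes, gives an FDR under 0.05 to 16 of the 48 genes, 3 higher and 13 lower in Atg5KO, beside 22.0% of its 24421 rows. All 13 calls of limma were among them with the same direction, and the authors' deposited table adds Abca3 and Abce1 as lower and Abca12 as higher.

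**Figure D4:**
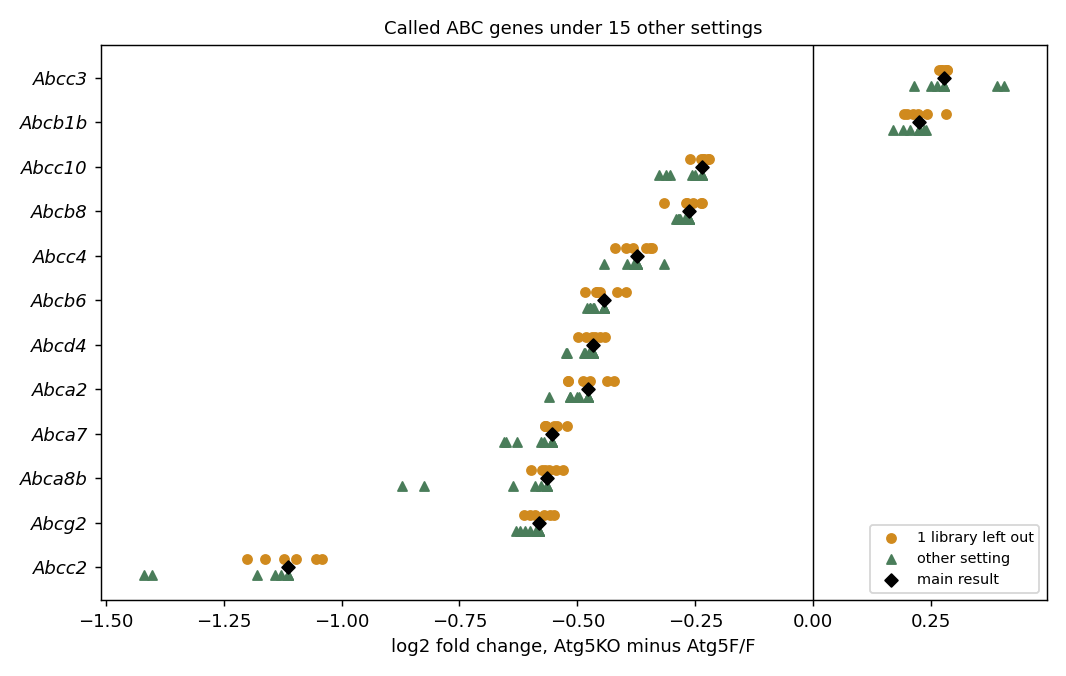
Log2 fold change (Atg5KO minus Atg5F/F) of 12 called ABC genes in the main fit (diamonds), with 1 library left out (circles) and under up to 9 other settings (triangles). All points of a gene lie on the same side of 0; Abcb1b comes nearest to it, at 0.17, and Abcc2 and Abca8b reach -1.42 and -0.87 with voom on recovered reads.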

How the data were processed

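RNA libraries (stranded mRNA kit) from 3 Atg5KO and 3 Atg5F/F samples were processed by the authors with edgeR, featureCounts 1.4.6, HISAT2 2.1.0, Trimmomatic 0.35 and bcl2fastq on GRCm38/mm10, per the submitters' processing notes. Not given in the sources used here were annotation, strand setting and treatment of multi-mapping reads. Deposited by the authors were FPKM values per gene and library, with the authors' log2 fold change, p-value, FDR and ranking score. Every one of 18296 genes above 0 came out as whole reads to within 8.8e-05 reads, using 1 total per library and 1 length per gene, so reads are shown where depth matters. The main fit was limma 3.58.1 in R 4.3.3 (eBayes with trend) on log2(FPKM + 1) for genes that reached 1 FPKM in 3 or more libraries, Atg5KO minus Atg5F/F, Benjamini-Hochberg adjusted over 11559 genes. The fit and read recovery were tested on simulated data. Members, gene lists and tests were chosen with earlier results of these data known. Named by rule were Atg5, all members and the called genes of the partner lists. Partner and marker genes that were not called are named as well, chosen after their values were seen. A few genes are counted in the totals but not reported here by name, with 2 ABC genes left out of the figures. Coordinates are from GENCODE vM21 (GRCm38). Alternatives were a replicate block, each library left out, no filter, a pseudocount of 0.1, a 5 FPKM filter, median ratio scaling, quantile normalization, voom on recovered reads, removal of a loess trend (span 0.5) on gene length, and no variance trend. Floors of 3 reads cover counting error only. Tables were read with Python 3.11.15, pandas 2.3.3 and numpy 2.4.6.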

Additional observations from a re-analysis of the deposited data

How the results depend on the processing

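Of the 13 called ABC genes, 11 stayed called in every one of the 15 other settings in which they were tested. Abcc10 lost its call on leaving out 4 of the 6 libraries. With a filter of 5 FPKM the count of higher ABC genes was 1, since Abcc3 was then not tested. Leaving out single libraries gave 9 to 11 lower and 2 to 3 higher ABC genes. Abca5, not called, had a log2 fold change of -0.036 with the length trend removed and of -0.015 to 0.11 with single libraries left out, the lowest without Atg5F/F replicate 2. The negative values are opposite to the sign reported, and the cause was not tested. Whether the replicate numbers pair the libraries could not be settled from 3 libraries per group. Deviations of same-numbered libraries correlated at 0.16, 0.08 and -0.02, and those of different-numbered libraries at -0.13 to 0.05. With the replicate block, 11 ABC genes were lower and 2 higher, with 2137 and 2531 genes over the whole table. The 23 untested genes were left out by the filter of 1 FPKM and had at most 83 reads per library. With no filter on low values, 41 ABC genes were tested and Abca12 was called as well.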
